A study of Mus musculus with 2 samples.

Results

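The cells described here are alveolar type 2 (AT2) cells of the mouse lung rich in transcripts of the chemokine genes Cxcl1 and Cxcl2. There were 1225 of them among 16715 AT2 cells, out of 19152 cells in all. They were chosen by their own measured values. A cell was a barcode with at least 2000 unique molecular identifiers (UMIs, each standing for 1 captured transcript), at least 500 detected genes and at most 20% of UMIs in mitochondrial genes. An AT2 cell had at least 15% of its UMIs in Sftpc, the surfactant protein C gene. A member was an AT2 cell with at least 3 UMIs of Cxcl1 plus Cxcl2 that also made up at least 0.03% of its UMIs. The members were compared with the 13141 AT2 cells that held 0 UMIs of both genes, called zero cells below. The other 2349 AT2 cells held some UMIs of either gene but fell short of the rule.

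The study placed 1 lung library of a tumor-bearing group beside 1 of a control group without a tumor. The mice of both were wild type C57BL/6. In the tumor-bearing group 1000000 LLC cells (Lewis lung carcinoma) labelled with luciferase had been injected subcutaneously on the dorsum 14 days before, as a model of spontaneous lung metastasis, while the control was non-treated. Lungs of both groups were digested with collagenases and DNase, and CD45- SftpC+ cells were sorted with a stated purity above 95%. The number of mice behind each library is not given, so a difference between the libraries has no replicate check, and no test is made between them. Intervals below are exact 95% intervals that cover counting error only. The sort and the Sftpc minimum both select on Sftpc, which makes its level no finding.

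The libraries summed to 84448360 UMIs for the tumor-bearing group and 91498124 for the control, but AT2 cells of the former were deeper, at a median of 8982 UMIs against 6941. The tumor-bearing library gave 8165 cells, of which 6719 were AT2 cells, and the control library 10987 and 9996. Of the cell barcodes, 128 occurred in both libraries, and 1 of these was a member in both. The label AT2 rests on Sftpc, which chose the cells. The 21 AT2 markers, Sftpc included, summed to 350400 and 348900 counts per 1000000 UMIs in members, 373900 and 366700 in zero cells, and 263500 and 320900 in empty droplets (barcodes with up to 100 UMIs), so their detection does not test the label. Members held somewhat more UMIs than zero cells. Their median was 9832 UMIs against 8680 in the tumor-bearing library, with 7684 against 6834 in the control library, and the part of depth in what follows was not tested beyond the alternatives given. Median mitochondrial shares were 2.82% in members and 3.11% in zero cells of the tumor-bearing library, and 3.14% and 3.42% in the control library.

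Cxcl1 and Cxcl2 encode small secreted proteins that bind the receptor Cxcr2 and draw neutrophils into tissue. AT2 cells make surfactant, renew the alveolar epithelium and can release such chemokines when the alveolus is disturbed. Both genes are textbook targets of the transcription factor NF-kB, which is released when its inhibitor IkB-alpha, encoded by Nfkbia, is degraded. NF-kB then switches Nfkbia on again, a negative feedback loop. Egr1, Fos, Jun and Atf3 belong to the immediate early genes, which are transcribed without new protein synthesis after growth factor signals or stress, enzymatic digestion of tissue included.

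Upstream DNA is shown for the 5 genes in which a searched motif of this pathway or of cyclic AMP signalling was found, so it does not stand for the other genes. The letters GGGNNTTTCC, one form of the NF-kB site, were searched on both strands in the 250 bases before the RefSeq start of each gene (build GRCm38.p6, which is mm10). They occurred in 378 of 27025 promoters, or 1.40%. Of the 25 genes called higher in members (below) and the 2 genes of the rule, 18 had a promoter in the table, and 4 of these 18 held the motif: Cxcl1, Cxcl2, Il6 and Nfkbia. Cxcl1 and Cxcl2 chose the cells, so this count includes the rule's own genes and tests nothing. Areg, the gene of an epidermal growth factor receptor ligand, held the full cyclic AMP response element TGACGTCA, which occurred in 1.62% of promoters. The AP-1 motif TGANTCA, searched in the same way and found in 6.87% of promoters, occurred upstream of Il6 and Gm12216. In the stretches that follow, written 5′ to 3′ on the strand of the gene, capitals mark the matches to the NF-kB motif or, for Areg, to the response element.
Cxcl1: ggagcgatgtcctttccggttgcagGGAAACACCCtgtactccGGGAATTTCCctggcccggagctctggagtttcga
Cxcl2: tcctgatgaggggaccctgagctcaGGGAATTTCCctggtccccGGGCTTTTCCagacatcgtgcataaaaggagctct
Il6: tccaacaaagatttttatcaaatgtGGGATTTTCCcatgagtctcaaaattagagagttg
Nfkbia: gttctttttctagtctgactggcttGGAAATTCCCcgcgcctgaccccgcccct
Areg: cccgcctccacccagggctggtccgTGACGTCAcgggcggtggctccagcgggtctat
These lie at chr5:90891131-90891208 for Cxcl1, chr5:90903777-90903855 for Cxcl2, chr5:30013045-30013104 for Il6 and chr5:91139513-91139570 for Areg, all on the plus strand, and at chr12:55492648-55492701 for Nfkbia on the minus strand. The matches of Cxcl1 and Cxcl2 began 89 and 71, and 97 and 78 bases before the start. Those of Il6, Nfkbia and Areg began 44, 29 and 61 bases before it. A match describes the letters of a promoter and shows neither a bound factor nor the cause of a level.

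Members made up 11.3% (10.6 to 12.1) of AT2 cells in the tumor-bearing library, 761 of 6719, and 4.64% (4.24 to 5.07) in the control library, 464 of 9996. The ratio of the shares was 2.44 (2.17 to 2.75). With each cell thinned to 2000 UMIs the shares were 3.41% and 1.12%. With thinning to 6000 UMIs, which left out 717 and 3042 shallower AT2 cells, they were 10.1% and 4.53%. The ratio was then 3.04 and 2.23. Thus the share was higher in the tumor-bearing library at each depth tried, with 1 library on each side.

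Chemokine UMIs were spread unevenly over AT2 cells. Members held a median of 8 UMIs of the 2 genes together in the tumor-bearing library (range 3 to 71) and 5 in the control library (3 to 40). AT2 cells with more than 20 such UMIs numbered 100 in the tumor-bearing library, with 15 in the control, which is 1.49% (1.21 to 1.81) and 0.150% (0.0840 to 0.247). These counts, the medians included, are not scaled to depth, which differed (AT2 medians of 8982 and 6941 UMIs). At 0.12% or more of a cell's UMIs, a limit that is scaled, there were 211 of 6719 and 90 of 9996 AT2 cells. Of all Cxcl1 and Cxcl2 UMIs of AT2 cells, members held 83.1% for the tumor-bearing group, against 67.2% for the control group. In the plot of chemokine UMIs per AT2 cell the ratio of the libraries was smallest at 1 UMI, with 11.4% and 9.004% of cells.

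**Figure D1:**
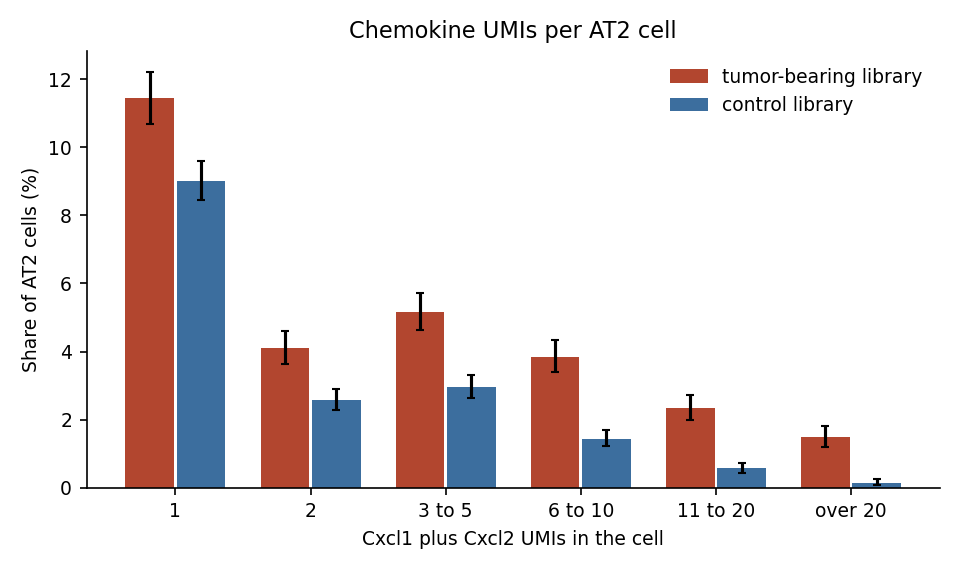
Share of AT2 cells (%, y axis) by the number of Cxcl1 plus Cxcl2 UMIs in the cell (x axis), with exact 95% binomial intervals as bars; cells with 0 UMIs (71.7% and 83.3%) are not drawn. The tumor-bearing library (red) stands above the control library (blue) in every class, from 11.4% against 9.004% at 1 UMI to 1.49% against 0.150% above 20 UMIs. Counts are not scaled to depth, which was greater in the tumor-bearing library.

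Cxcl1 was the commoner transcript of the pair in members. It was detected in 732 of 761 members of the tumor-bearing library, with 439 of 464 of the control library, and Cxcl2 in 285 and 132. Both genes were detected in 256 members (33.6%) of the tumor-bearing library, with 107 (23.1%) of the control, and Cxcl2 without Cxcl1 in only 29 and 25. As a background, 19 of 289 cells with ciliated cell markers held a Cxcl1 UMI in the tumor-bearing library (6.57%) and 24 of 463 (5.18%) in the control library, at median depths of 5600 and 5251 UMIs. AT2 cells as a whole held one in 25.5% and 15.2% of cells at median depths of 8982 and 6941 UMIs. Empty droplets held Cxcl1 at 144 and 87.0 and Cxcl2 at 48.5 and 10.3 counts per 1000000 UMIs. Single UMIs of either gene were thus found in cells of another type and outside cells, while members hold at least 3. The chemokine limits of the rule were also met by 2 of 289 and 5 of 463 cells with ciliated markers. Cells with fibroblast markers met them in 4 of 70 and 3 of 36.

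Between the libraries the members differed in Cxcl2 and not, beyond counting error, in Cxcl1. Cxcl1 summed to 765 counts per 1000000 UMIs (CPM) in members of the tumor-bearing library, with 737 CPM in those of the control library, a ratio of 1.04 (0.992 to 1.09). Cxcl2 summed to 255 and 126 CPM, a ratio of 2.03 (1.84 to 2.25). Over all AT2 cells, Cxcl1 stood at 120 and 57.2 CPM (2.10-fold) and Cxcl2 at 36.7 and 8.97 CPM (4.09-fold). Without the members those ratios were 1.26 (1.17 to 1.36) and 1.81 (1.49 to 2.20). Since the rule sets a floor on these 2 genes, their levels in members are a description.

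The 2 genes of the rule sit side by side in a stretch of 12 protein-coding genes on chromosome 5 that runs over 644 kilobases from Cxcl5 to Btc and also holds Areg. Cxcl2 starts 10756 bases after the end of Cxcl1, and Areg 234 kilobases after the end of Cxcl2. Areg stood at 252 CPM in members and 96.0 CPM in zero cells of the tumor-bearing library, and at 144 and 63.6 CPM in the control library. Cxcl15, a chemokine-like secreted protein that AT2 cells make constitutively, lies among them and was slightly lower in members: 3419 against 3638 CPM and 2386 against 2510 CPM. Cxcl5, another Cxcr2 ligand, had 16 UMIs (1.99 CPM) in members and 6 (0.140 CPM) in zero cells of the tumor-bearing library, and 7 (1.88 CPM) and 10 (0.170 CPM) in the control library. Cxcl3 reached only 3 UMIs in the members of either library. Pf4 and Mthfd2l, on both sides of the pair, differed little: Pf4 stood at 21.9 and 23.4 CPM in members and zero cells of the tumor-bearing library and Mthfd2l at 21.7 and 23.4 CPM. The control library had Pf4 at 25.7 and 20.8 CPM and Mthfd2l at 24.1 and 20.6 CPM. Neighbours of Cxcl1 and Cxcl2 were therefore not alike in members.

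Beyond the genes of the rule, members stood out by few genes, and those were mostly immediate early genes, NF-kB feedback genes and secreted signals. Summed UMIs of members were set against those of zero cells in each library. A gene was called where the mean level over the 4 profiles was at least 20 CPM, the levels differed at least 2-fold in the same direction in both libraries and the 95% Poisson intervals were separate in each. Of 3877 genes compared, 25 were called higher, which is 0.645%, and 0 lower, 0%. Since the mean takes in the members, a gene under 20 CPM in zero cells could pass through its level in members. Il6, Gm12840, Gm20186, Gm17056 and Birc3 were among such genes. Because the members were selected on 2 transcripts of the same cells, these counts describe the cells and test nothing. Over all 3877 genes the median log2 ratio was 0.03 in the tumor-bearing library, with 0.02 in the control, so the 2 profiles were otherwise centred alike. At a looser size of 1.5-fold, 45 genes (1.16%) were higher and 3 (0.0774%) lower. In 270 genes (6.96%) the intervals were separate with the members higher in both libraries at any size, and in 83 (2.14%) with the members lower. In each library alone 32 genes were called higher, and the 25 shared ones were 78.1% of each list. The plot of log2 ratios in both libraries shows these genes along the diagonal and a compact cloud of the others.

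**Figure D2:**
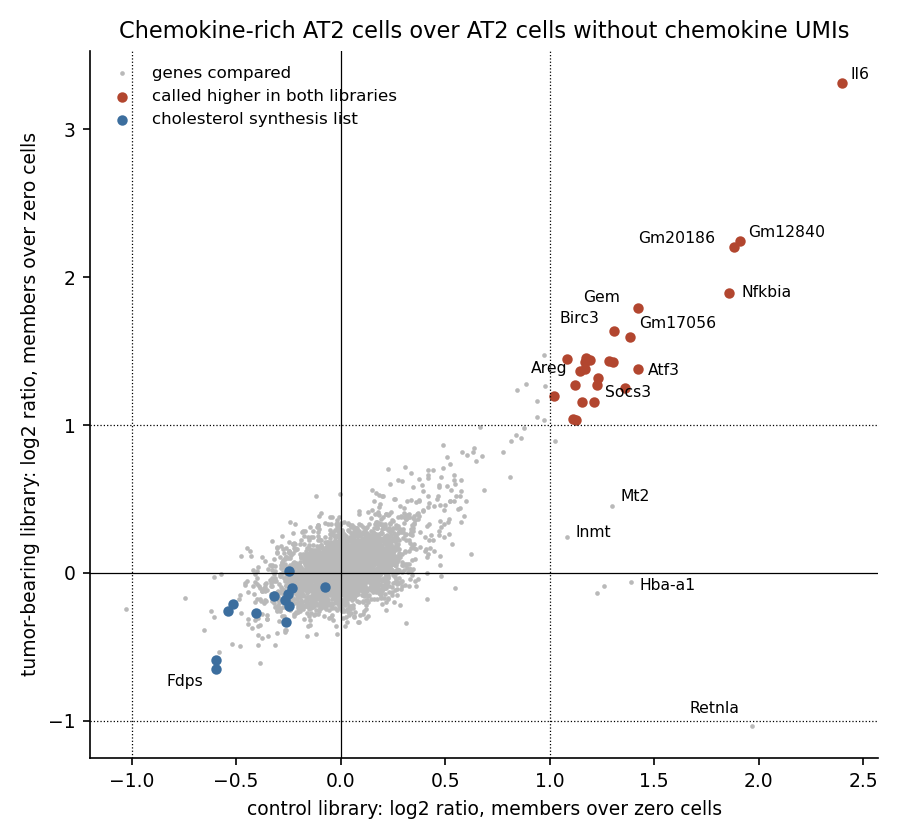
Log2 ratio of members over zero cells in the control library (x axis) and the tumor-bearing library (y axis), 1 point per gene compared (3877), with dotted lines at 2-fold. The 25 genes called higher in both (red) reach 3.32 and 2.40 for Il6, the cholesterol synthesis list (blue) lies mostly in the lower left, and Retnla alone lies beyond -1 in one library and beyond 1 in the other.

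Il6 led the list. It encodes interleukin 6, a cytokine that acts through the transcription factor Stat3. In the tumor-bearing library it summed to 71.4 CPM (65.7 to 77.5) in members and 6.28 CPM in zero cells, an 11.4-fold difference (9.83 to 13.2). The control library gave 34.6 CPM (28.8 to 41.1) and 5.74 CPM, 6.02-fold (4.88 to 7.40). An Il6 UMI was found in 149 of 761 members (19.6%) against 3.20% of zero cells, and in 61 of 464 (13.1%) against 2.88%. Cells with ciliated markers held one in 0 of 289, which allows a share of up to 1.04% at 3 counts (exact upper limit 1.27%), and in 2 of 463 (0.432%). A single member of the tumor-bearing library held 109 of the 573 Il6 UMIs, and without that cell the level was 57.9 CPM and the difference 9.23-fold.

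Few other cytokine genes could be compared. Of 22 chemokine and cytokine genes outside the rule 5 reached 20 CPM, and Il6 was the 1 called. Csf2, which encodes a growth factor of alveolar macrophages, stood at 25.6 against 19.9 CPM in the tumor-bearing library, with 31.9 against 21.04 CPM in the control. Cxcl16 had log2 ratios of 0.22 and 0.26. The alarmin Il33 had log2 ratios of -0.09 and -0.39. Ccl20, which draws dendritic cells and lymphocytes, lay under the minimum with 43 UMIs in 8 members and 21 UMIs in 7 members, and 34 of the 43 were in 1 cell. None of the 6 chemokine receptor genes reached 20 CPM, and the neutrophil receptor Cxcr2 had 4 UMIs in members of the tumor-bearing library, with 0 in those of the control.

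Of the NF-kB genes, those called were an inhibitor, an inhibitor-like cofactor and a survival factor. Nfkbia stood at 1149 CPM in members and 308 CPM in zero cells of the tumor-bearing library, 3.73-fold (3.63 to 3.83), and at 911 and 251 CPM in the control library, 3.64-fold (3.504 to 3.78). Nfkbiz, an inhibitor-like cofactor that NF-kB needs at part of its targets, Il6 among them, stood at 122 against 44.4 CPM and at 91.1 against 36.8 CPM, with log2 ratios of 1.43 and 1.28. Birc3, a ubiquitin ligase that restrains cell death, stood at 58.2 against 18.0 CPM and 46.3 against 18.1 CPM (log2 ratios 1.64 and 1.31). These 3 of 10 genes compared were called, and the list medians were 0.45 and 0.49 on the log2 scale. The adhesion molecule gene Icam1 was just under the size, with log2 ratios of 0.93 and 0.84. The subunit genes Rela (0.31 and 0.16) and Nfkb1 (0.20 and 0.06) had small ratios. The subunit genes Rel (1.15 and 1.08), Relb (0.60 and 0.84) and Nfkb2 (0.58 and 0.55) lay under the level minimum. Tnfaip3, which encodes the brake A20, was also too low to be compared at 29.2 against 6.37 CPM and 23.03 against 4.30 CPM. It was held by 164 of 761 members (21.6%) and 5.03% of zero cells in the tumor-bearing library, and by 72 of 464 (15.5%) and 2.88% in the control library. Upstream, Myd88, the adaptor of Toll-like and interleukin 1 receptors, had log2 ratios of 0.89 and 0.81. It was 1 of 3 among 25 receptor and kinase genes that reached the minimum, and the others were Tnfrsf1a (-0.01 and -0.12) and Irak1 (-0.18 and 0.17).

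Immediate early genes made up the largest group. Of 22 compared, 9 were called higher and 0 lower, 19 had separate intervals in both libraries, and the medians were 0.84 and 0.84. Over all 3877 genes, 25 (0.645%) were called higher, and 270 (6.96%) had separate intervals with the members higher in both libraries. Gem, which encodes a small GTP-binding protein that restrains calcium channels, stood at 193 against 55.0 CPM in the tumor-bearing library, 3.501-fold (3.28 to 3.74), and at 204 against 75.4 CPM in the control library, 2.70-fold (2.496 to 2.92). Atf3, a stress-induced transcription factor, stood at 234 against 89.3 CPM and 220 against 81.4 CPM, with log2 ratios of 1.38 and 1.42. Egr1 stood at 1087 against 400 CPM and 1040 against 454 CPM, 2.72-fold and 2.29-fold. Junb, a subunit of the AP-1 factor, stood at 1573 against 585 CPM and 1434 against 580 CPM. Ier2, Nr4a1, Klf6, Maff and Jun were the other 5 called, with log2 ratios between 1.04 and 1.46. Fos, the partner of Jun, missed the size in the control library with log2 ratios of 1.03 and 0.97. Klf4 (0.11 and 0.13) and Gadd45a (0.18 and -0.10) differed least. Most of the list was thus higher in members of both libraries.

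The genes that end such signals followed. Of 12 feedback genes compared, Zfp36 (1.43 and 1.17), Socs3 (1.27 and 1.23) and Ier3 (1.20 and 1.02) were called higher on the log2 scale. Zfp36 encodes tristetraprolin, which destabilises cytokine transcripts, and stood at 347 against 128 CPM in the tumor-bearing library, with 313 against 138 CPM in the control. Socs3, the inhibitor of interleukin 6 receptor signalling, stood at 116 against 47.3 CPM and 150 against 63.4 CPM. The phosphatase gene Dusp1 (1.06 and 0.94) and Phlda1 (1.26 and 0.98) passed 2-fold in the tumor-bearing library alone, and Socs2 lay below 0 in both (-0.29 and -0.22). The list medians were 0.64 and 0.50. Stat3 itself stood at 135 against 87.5 CPM and 114 against 92.7 CPM.

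Of 14 genes of ligands and receptors of the epidermal growth factor family, 3 were compared and 1 called. Areg was called at a ratio of 2.63 (2.49 to 2.77) in the tumor-bearing library, with 2.27 (2.07 to 2.48) in the control. An Areg UMI was present in 53.2% of members and 25.9% of zero cells of the former, and in 38.6% and 19.2% of the latter. Hbegf, the heparin-binding ligand, stood at 126 against 52.8 CPM and 81.7 against 45.0 CPM, 2.39-fold and 1.81-fold, so it missed the size in the control library. Erbb3 was the only receptor compared and lay at -0.06 and 0.07 on the log2 scale. Under the minimum, Btc (-0.22 and 0.39), Epgn (-0.25 and 0.27) and Egf (0.10 and -0.46) had opposite signs in the libraries. Ptgs2, the inducible enzyme of prostaglandin synthesis, was called at 77.8 against 31.7 CPM and 54.1 against 24.3 CPM, while Ptgs1 had log2 ratios of -0.14 and -0.28.

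Several of the 25 genes belong to none of these groups. Dnajb1, a heat shock co-chaperone, stood at 167 against 66.2 CPM and 124 against 52.2 CPM, and it was the 1 of 10 heat shock genes called. Hsp90aa1 (0.09 and 0.08) and Hspd1 (0.01 and 0.12) were near 0 on the log2 scale, and Hspa1a was -0.34 in the tumor-bearing library, with 0.32 in the control. Thbs1, an extracellular activator of TGF-beta, stood at 46.6 against 20.4 CPM and 41.8 against 18.2 CPM. The poorly described gene 2810403A07Rik stood at 49.6 against 20.3 CPM and 49.8 against 18.8 CPM.

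The other 4 called genes of no group carry only model names, and their neighbours in the genome were looked up. The long noncoding gene Gm12840 (chromosome 4, 117700188 to 117700923) stood at 34.9 against 6.58 CPM in the tumor-bearing library, with 32.1 against 7.81 CPM in the control, 5.30-fold and 4.12-fold. Its nearest protein-coding gene, Dmap1, is 17915 bases away and had log2 ratios of -0.08 and -0.04. Gm20186 (chromosome 6, 18845910 to 18848207) stood at 57.0 against 11.6 CPM and 39.4 against 9.95 CPM, and lies 372 bases from Lsm8 on the other strand, which had log2 ratios of 0.25 and -0.02. Gm17056 (chromosome 12, 40198656 to 40201105) stood at 54.1 against 17.2 CPM and 28.7 against 10.3 CPM. It overlaps Lsmem1 on the other strand and lies 462 bases from Ifrd1. Lsmem1 (2.04 and 1.59, under the level minimum) and Ifrd1 (1.28 and 0.89) were higher too. Gm12216 (1.37 and 1.14), a protein-coding model on chromosome 11 (53783418 to 53859256), lies 5044 bases from Irf1 (1.48 and 0.97), an interferon and NF-kB target. How counting treated strand is not given in the sources used here, so Gm17056 and Lsmem1 cannot be told apart.

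Genes lower in members were few and their differences small. The 3 genes at least 1.5-fold lower in both libraries all act in sterol synthesis. Fdps, which makes farnesyl diphosphate, stood at 101 CPM in members (94.1 to 108) and 159 CPM in zero cells of the tumor-bearing library, and at 110 (99.4 to 121) and 166 CPM in the control library. Msmo1 stood at 49.6 against 75.3 CPM and 40.7 against 62.0 CPM. Nsdhl, outside the list, stood at 18.1 against 27.7 CPM and 16.9 against 26.0 CPM. Of the 13 cholesterol synthesis genes compared 12 lay below 0 in both libraries, with medians of -0.21 and -0.27, while none reached 2-fold. Of 13 fatty acid synthesis genes 9 lay below 0 in both, with medians of -0.11 and -0.23. Scd1, the desaturase, had 351 against 399 CPM and 495 against 595 CPM. Of 12 fatty acid oxidation genes 10 lay below 0 in both (medians -0.09 and -0.11). Over all 3877 genes 1009 lay below 0 in both libraries.

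AT2 identity genes were slightly lower, and those of the passage from AT2 to AT1 cells slightly higher. Of 20 AT2 genes without Sftpc, 16 lay below 0 in both libraries, 11 with separate intervals, and 0 were called. The medians were -0.10 and -0.10. Over all 3877 genes 1009 lay below 0 in both, and 83 (2.14%) did so with separate intervals. Intervals of abundant genes are narrow and can separate at small ratios. Abca3, the lipid pump of lamellar bodies, stood at 318 against 373 CPM in the tumor-bearing library, with 294 against 365 CPM in the control, and Lamp3 differed little with log2 ratios of -0.03 in both. Lyz1 was lower in the tumor-bearing library alone (-0.33 and 0.09). Of 11 transition genes 10 lay above 0 in both, with medians of 0.29 and 0.34, where 1571 of all 3877 genes lay at or above 0 in both. The cell cycle inhibitor Cdkn1a stood at 82.4 against 41.3 CPM and 82.5 against 44.4 CPM. Krt8, the keratin after which the transitional state is named, stood at 266 against 217 CPM and 328 against 280 CPM. MHC class II genes were close to the median of all genes (0.09 and 0.06), and MHC class I genes were too (-0.04 and 0.01). The 20 AT2 genes thus differed by less than 2-fold between members and zero cells in each library.

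Nfkbia and Egr1 stood higher in each next bin of chemokine level, below the threshold of the rule as well as above it. Across the threshold itself Egr1 went from 702 to 962 CPM in the control library. Since the same cells' chemokine counts set the bins, this is a description. AT2 cells were put in 6 bins: 0 UMIs, 1 or 2 UMIs, 3 or more UMIs under 0.03%, and members up to 0.06%, up to 0.12% and above. Nfkbia had 308, 510, 655, 936, 1176 and 1424 CPM along the bins of the tumor-bearing library. Its control values were 251, 427, 506, 713, 953 and 1320 CPM. Egr1 went from 400 to 1182 CPM and from 454 to 1216 CPM, with most of its range passed before the last bin. Gem had no steady order among members. It stood at 165 (151 to 180), 223 (206 to 241) and 194 CPM (176 to 213) in the 3 member bins of the tumor-bearing library, with 204, 195 and 223 CPM in the control. Fdps went the other way, from 159 to 90.2 CPM and from 166 to 93.2 CPM. In the control library the 3 member bins of Gem had overlapping intervals, and the bin just before them was lower, at 83.3 CPM, than the bin of 1 or 2 UMIs, at 114 CPM.

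Il6 and Cxcl2 were higher in the highest bin of the tumor-bearing library than in that of the control. Il6 had 41.1, 44.9 and 149 CPM (133 to 166) in the 3 member bins there, against 22.8, 42.1 and 48.1 CPM (32.9 to 67.9) in the control library. The 1 member with 109 Il6 UMIs lies in that bin, and without the highest cell of each library, left out after the values were seen, the last bins stood at 99.1 CPM (86.3 to 113) and 36.5 CPM (23.4 to 54.3). Cxcl2 had 64.9, 140 and 676 CPM against 60.6, 131 and 277 CPM. Cxcl1 had 1434 CPM in that bin in the tumor-bearing library, with 1731 CPM in the control, the reverse order. The sum of Cxcl1 and Cxcl2 sets the bin, so their levels within it are tied and this order is no separate result. Areg was higher in the tumor-bearing library in all 6 bins, from 96.0 against 63.6 CPM to 286 against 132 CPM. These bins hold 284, 266 and 211 members of the tumor-bearing library, with 194, 180 and 90 of the control. Bin 3 holds cells of high depth by its construction, with medians of 13602 and 12948 UMIs.

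**Figure D3:**
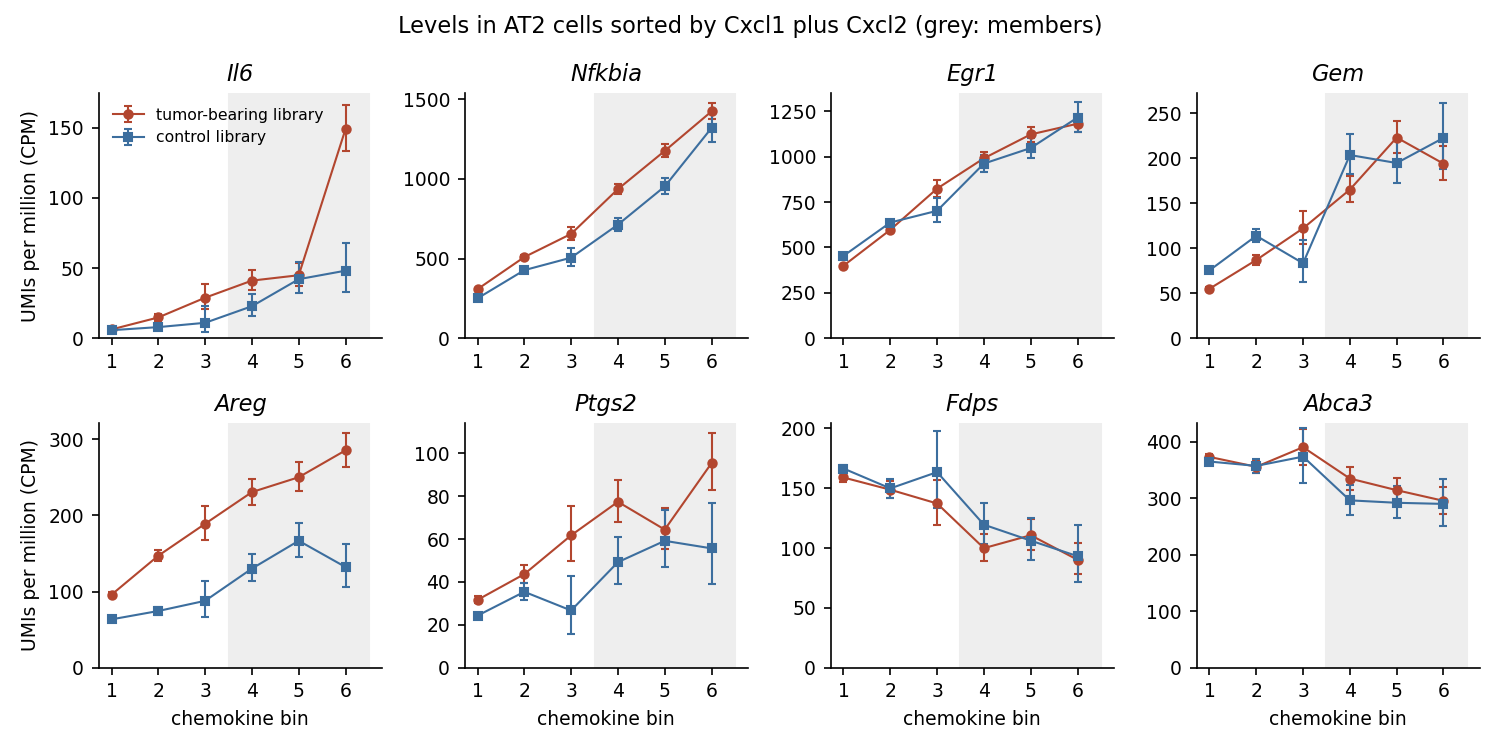
Level of 8 genes (CPM, y axes from 0) in AT2 cells sorted into 6 bins of Cxcl1 plus Cxcl2 (x axes; bins 4 to 6, grey, are members), tumor-bearing library in red circles and control in blue squares, bars as 95% Poisson intervals. Nfkbia is higher in every next bin of both libraries, up to 1424 and 1320 CPM. Il6 stands at 149 CPM in the last bin of the tumor-bearing library (99.1 CPM without 1 cell) and 48.1 CPM in the control, and Fdps ends at 90.2 and 93.2 CPM.

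Cells just inside and just outside the rule are given for both of its limits, with no test. Members with exactly 3 chemokine UMIs numbered 88 in the tumor-bearing library, with 114 in the control, and AT2 cells with exactly 2 numbered 275 and 258. Nfkbia stood at 987 CPM inside and 616 CPM outside in the tumor-bearing library, with 640 and 539 CPM in the control library. At the other limit, members with 0.03 to 0.035% of UMIs had 739 CPM of Nfkbia and cells with 3 or more UMIs at 0.025 to 0.03% had 677 CPM in the tumor-bearing library. The control library gave 500 and 541 CPM there, the opposite order. Egr1 (883 inside against 925 outside, and 664 against 715 CPM) and Gem (116 against 141, and 80.5 against 88.7 CPM) were lower inside this limit in both libraries. Members just inside the share limit numbered 54 and 29, so the edge is thinly filled.

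Few genes differed by 2-fold between members that leaned to Cxcl2 and those that leaned to Cxcl1. More Cxcl2 than Cxcl1 UMIs were found in 127 members of the tumor-bearing library, with 51 of the control, against 619 and 402 with more Cxcl1. Of 3896 genes outside the rule, 1 was at least 2-fold higher in the Cxcl2-leaning cells of both libraries and 3 lower. The 1 higher was Saa3, an acute phase protein gene, at 40.2 against 15.6 CPM and 26.1 against 5.29 CPM. All its 157 UMIs in members of the tumor-bearing library came from 6 cells, 82 of them from 1 cell, and the 28 in the control library from 3 cells. The 3 lower were the hemoglobin genes Hba-a1, Hba-a2 and Hbb-bs, and of the Hbb-bs UMIs in members of the control library 90.4% were in 5 cells. Il6 stood at 151 against 54.2 CPM in the tumor-bearing library, and at 73.8 CPM (60.2 to 89.6) in its Cxcl2-leaning cells without the 1 cell of 109 Il6 UMIs. The control library gave 33.2 against 34.6 CPM. Nfkbia was lower in Cxcl2-leaning cells, at 1079 against 1171 CPM, 0.922 times (0.872 to 0.974), in the tumor-bearing library and more so, at 623 against 945 CPM, 0.660 times (0.579 to 0.749), in the control. Zfp36 stood at 0.951 times (0.859 to 1.05) and 0.652 times (0.518 to 0.811). Egr1 stood at 994 against 1109 CPM and 894 against 1052 CPM. Splitting the members by an Il6 UMI (149 and 61 cells with one) gave the same 1 gene higher, Saa3, among 3909, and 2 lower, Hba-a1 and Hbb-bs. Gem (264 against 174 CPM, and 263 against 194 CPM) and Socs3 (160 against 104 CPM, and 184 against 144 CPM) were higher in members with Il6 without reaching 2-fold.

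The members of the 2 libraries were then set against each other. Of 3893 genes 14 were at least 2-fold higher in tumor-bearing members (0.36%) and 8 lower (0.205%). In zero cells, 15 of 3844 genes were at least 2-fold higher in the tumor-bearing library and 5 lower. These held 8 of the 14 and 4 of the 8 genes of the members. Of the higher genes, 7 had less than 0.5 times the level of empty droplets in the members of a library, among them the airway gene Scgb1a1 and the endothelial gene Ly6c1, and are not described further. Of the lower genes the same held for 4, the hemoglobin genes and Retnla.

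Il6 was 2.07-fold (1.71 to 2.52) higher in tumor-bearing than in control members, while zero cells stood at 6.28 and 5.74 CPM, 1.09-fold (0.929 to 1.29). Without the 1 cell of highest Il6 in each library the members stood at 57.9 and 32.5 CPM, 1.78-fold (1.46 to 2.20), so the call at 2-fold rests on 1 cell of the tumor-bearing library. The other 6 genes described as higher were also higher in zero cells. Zbtb16, a zinc finger gene that glucocorticoids induce, stood at 35.2 against 10.2 CPM in members, 3.45-fold (2.46 to 4.98), and at 22.2 against 11.2 CPM in zero cells. Acot1, a thioesterase of fatty acid metabolism, stood at 102 against 41.2 CPM in members and 122 against 44.4 CPM in zero cells. Nr1d1, the clock repressor, stood at 31.9 against 12.6 CPM and 30.8 against 13.0 CPM. Acadl, Bex2 and Filip1l had ratios of 2.13, 2.01 and 2.57 in members and 1.90, 1.77 and 1.89 in zero cells.

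The metallothionein genes Mt2 and Mt1, whose products bind zinc and copper, led the lower genes that remained with the hemoglobin genes and Retnla set aside. Mt2 stood at 8.60 CPM in tumor-bearing and 54.6 CPM in control members, 0.157 times (0.118 to 0.208), and at 6.00 and 21.6 CPM in zero cells. Mt1 stood at 140 and 324 CPM in members and 127 and 210 CPM in zero cells. In empty droplets Mt2 had 14.2 CPM in the tumor-bearing library, with 58.2 CPM in the control, above the members of the former and near those of the latter, and the part of free RNA was not tested. Within the control library Mt2 was 2.53-fold (2.17 to 2.93) higher in members than in zero cells and in the tumor-bearing library 1.43-fold (1.08 to 1.88). The latter rests on 69 UMIs, of which 58.0% were in 5 cells. Its log2 ratio turned from 0.46 to -0.22 with AT2 cells taken at 20% or more Sftpc, and without the top cell of each class the levels were 6.88 and 5.84 CPM. Osgin1, an oxidative stress target, was 0.439 times as high in members and 0.472 times in zero cells. Alkbh7 stood at 0.478 and 0.626 times.

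Egr1, Gem, Nfkbia, Areg and Socs3 differed by under 2-fold between the members of the libraries. Cxcl2, a gene of the rule, passed 2-fold. Il6 passed it only with the highest cell of each library kept, and stood at 1.78-fold (1.46 to 2.20) without them. Egr1 stood at 1.05 (1.01 to 1.09), Gem at 0.946 (0.866 to 1.03) and Nfkbia at 1.26 (1.21 to 1.31) times the control level in members. In zero cells the same genes stood at 0.880, 0.729 and 1.23 times. Areg was 1.75-fold (1.59 to 1.92) higher in members and 1.51-fold in zero cells. Socs3 was lower in the tumor-bearing library in both kinds of cell, at 0.774 and 0.747 times. The immediate early list had a median log2 ratio of 0.16 between members and 0.07 between zero cells.

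**Figure D4:**
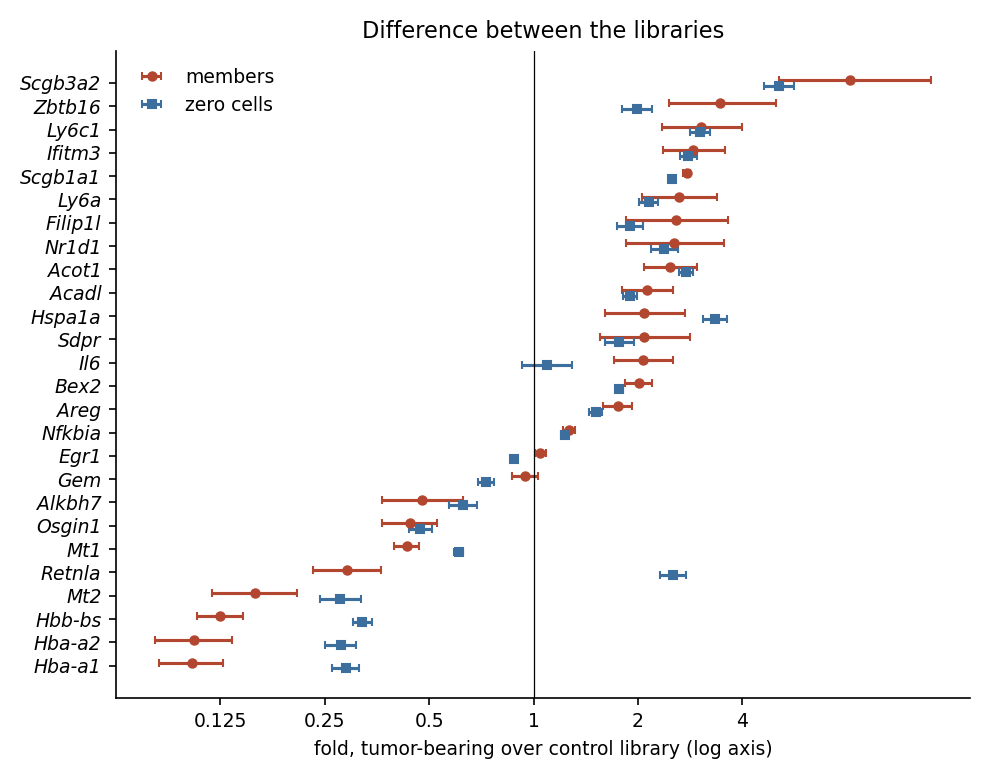
Fold of the tumor-bearing over the control library (log axis) for the genes called between members and 4 marker genes, in members (red circles) and zero cells (blue squares), with exact 95% intervals. Il6 stands at 2.07 in members (1.78 without 1 cell of each library) and 1.09 in zero cells, Retnla at 0.290 and 2.53, and most other genes lie on the same side of 1 in both.

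Transcripts of other cell types were at like levels in members and zero cells for most lists. Ptprc, the gene of the CD45 protein that the sort excludes, had 2 UMIs in members of the tumor-bearing library, with 0 in those of the control. The 6 neutrophil markers summed to 27.8 CPM (24.3 to 31.7) in members and 33.0 CPM in zero cells of the tumor-bearing library, with all 6 detected in members. In the control library they summed to 0.536 and 0.815 CPM, and 5 of 6 were at 0 in members. Empty droplets held 849 and 2.59 CPM of them. Endothelial markers (7 genes) summed to 171 against 199 CPM and 42.6 against 56.3 CPM, and macrophage markers (7 genes) to 9.85 against 8.59 CPM and 10.7 against 7.96 CPM. Neuroendocrine markers (3 genes) were higher in members of the tumor-bearing library at 7.85 against 0.770 CPM, as were muscle and pericyte markers (5 genes) at 20.7 against 6.54 CPM, and 0.263% and 0.526% of members held 2 or more UMIs of these lists. In the control library these lists stood at 0.536 against 0.391 CPM and at 0.803 against 3.21 CPM, with Acta2, Myh11, Pdgfrb and Cspg4 of the muscle and pericyte list at 0 in members. Fibroblast markers (7 genes) were higher in members of both, at 62.2 against 49.2 CPM and 30.0 against 17.1 CPM, with Lum at 0 in the members of either library and Col1a1, Col3a1 and Dcn at 0 in those of the control. Red cell markers (5 genes) stood at 51.6 against 55.7 CPM in the tumor-bearing library, with 471 against 187 CPM in the control. In the control library 6.25% of members and 6.71% of zero cells held 2 or more UMIs of that list. Of the Hba-a1 UMIs in control members 92.9% were in 5 cells. The part of these transcripts in the member profiles was not tested. With all cells left out that held 2 or more UMIs of endothelial, stromal or blood cell markers, 304 and 293 members remained, 24 genes were called higher, and the shares of AT2 cells were 9.69% and 4.35%.

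**Figure D5:**
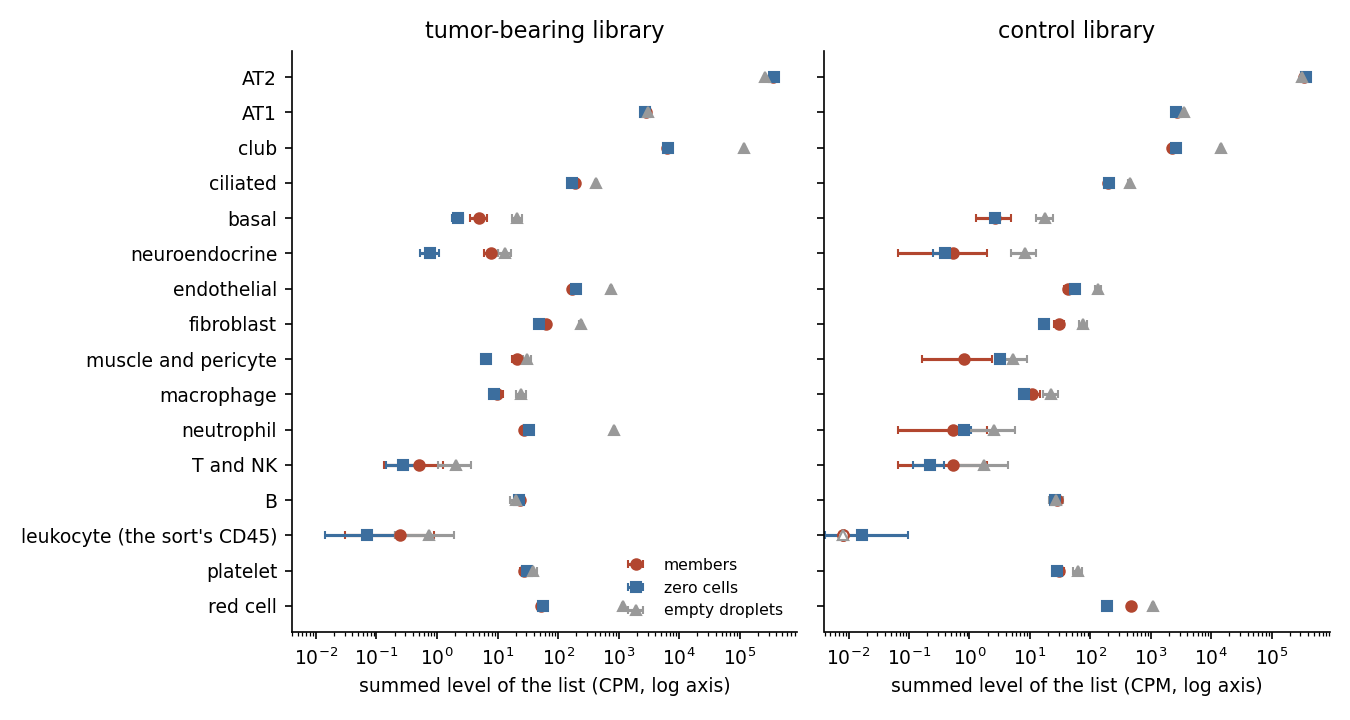
Summed level of 15 marker lists and of Ptprc (CPM, log axis) in members (red circles), zero cells (blue squares) and empty droplets (grey triangles) of the tumor-bearing (left) and control library (right), bars as 95% Poisson intervals and open symbols at the left edge for 0 UMIs. Members and zero cells nearly coincide for AT2, AT1 and club lists, and the red cell list of the control library is at 471 CPM in members against 187 CPM in zero cells. Of the Hba-a1 UMIs in those members, 92.9% were in 5 cells.

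Cells under the Sftpc minimum rarely passed the chemokine rule. It was met by 35 of 1446 such cells (2.42%, 1.69 to 3.35) in the tumor-bearing library, with 22 of 991 (2.22%, 1.40 to 3.34) in the control, at median depths of 4906 and 5439 UMIs. Among cells with ciliated markers it was met by 2 of 289 and 5 of 463. Among those with fibroblast markers it was met by 4 of 70 and 3 of 36. AT2 cells met it in 11.3% and 4.64%, at greater depth.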

How the data were processed

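Droplet-based single-cell RNA sequencing gave 2 deposited matrices of UMI counts per gene and barcode. The authors made these counts with Cell Ranger 2.1.0 at its recommended settings, which the series design text states, against mm10, per the submitters' processing notes, which also name Seurat and R 3.5.3 without a role. The matrices hold all 737280 barcodes each and 28692 genes. The members, gene lists and rules were chosen with earlier results of these data known. Counts were summed over members and over zero cells of each library and scaled to CPM of all UMIs. A log2 ratio has a pseudocount of 1 CPM, and ratios printed as fold have none. Intervals are exact (Clopper-Pearson for shares, Poisson for levels, conditional binomial for ratios). The genes described are up to 12 per direction called in both libraries by the smaller log2 ratio, up to 8 per direction between the libraries, the markers given for the cells (Cxcl1, Cxcl2, Areg, Gem and Egr1) and up to 4 per fixed list with the largest ratios. Others named were chosen after their values were seen, such as neighbours and genes at a list's low end. Genes under 0.5 times the level of empty droplets were left out of the ranking. Scrublet scores, run through scanpy 1.11.5, gave 0 and 1 automatic doublet calls, which is too few to be a working threshold, so no doublets were removed and leaving out the highest scores is an alternative. Gene positions come from GENCODE release 21 of the mouse (vM21), which held 28339 of the 28692 gene identifiers. Analyses ran in Python 3.11.15 with numpy 2.4.6 and scipy 1.17.1.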

Additional observations from a re-analysis of the deposited data

Results flagged for a closer look

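Retnla, which encodes a secreted protein of macrophages and airway cells, was the 1 gene called in opposite directions in the 2 libraries. Members had 16.3 CPM and zero cells 34.5 CPM in the tumor-bearing library, a log2 ratio of -1.03, while the control library had 56.2 and 13.6 CPM, a log2 ratio of 1.97. The difference of the log2 ratios was -3.0, and it was not tested. In the control library 145 of the 210 UMIs in members came from 1 cell, and 89.5% from 5 cells. A Retnla UMI was present in 4.96% of members and 4.06% of zero cells of that library, and in 7.23% and 9.43% in the tumor-bearing library.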

How the results depend on the processing

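Members and zero cells were compared within each library, but no paired analysis between the groups was possible because each has 1 library. The share of members moved with the rule and the depth, and the tumor-bearing library had the higher share in all 11 alternatives, by 2.23 to 3.06 times. With at least 5 chemokine UMIs and 0.05% the shares were 7.72% and 2.52%, with 3 or more UMIs and no minimum share 12.8% and 5.12%, with thinning to 2000 UMIs 3.41% and 1.12%, with thinning to 6000 UMIs 10.1% in the tumor-bearing library, and without cells holding other markers 9.69% there. The 25 genes higher in members became 16 at a minimum of 50 CPM, and otherwise ranged from 18 to 33. The 0 lower genes became 1 with CPM taken without Sftpc, Cxcl1 and Cxcl2 and 1 at a minimum of 10 CPM. Between the libraries the 14 genes higher in tumor-bearing members became 23 without those 3 genes in the total (10 lower), 35 at a minimum of 10 CPM, 6 at 50 CPM and 7 with a pseudocount of 10 CPM. The 8 lower became 3 at 50 CPM. Of the 730 values that the 46 list medians took under the alternatives, 5 were counted as a change of sign. Chemokines and cytokines changed at 50 CPM (-0.09 for the tumor-bearing library, -0.073 for the control). Interferon response changed without cells holding other markers (-0.011 for the control). Upstream receptors and kinases in the control library changed without those cells (-0.027) and with zero cells weighted to the depth of members (-0.002). Medians near 0 at the main settings were left out of this count, and some also changed sign. The circadian clock median of the tumor-bearing library, for one, ranged from -0.124 to 0.11. No ratio of a named gene that was at least 2-fold changed its sign. Smaller ratios could, such as Mt2 in members over zero cells of the tumor-bearing library, which went from 0.46 down to -0.22. Il6 in members over zero cells of the tumor-bearing library went from 3.32 to 3.02 on the log2 scale without its highest cell, an alternative chosen after seeing the data. A minimum of 50 CPM leaves fewer genes, and the cause of the other changes was not tested. Low depth limits genes under 20 CPM, and 1 library per group leaves any difference between mice unmeasured.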

Other observations

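In the control library alone, 7 genes were called higher in members. Hbb-bs (-0.09 and 1.26), Hba-a1 (-0.06 and 1.39), Hba-a2 (-0.14 and 1.23) and Retnla (-1.03 and 1.97) had the opposite sign on the log2 scale in the tumor-bearing library, given first, while Inmt (0.24 and 1.08), Mt2 (0.46 and 1.30) and Mbd1 (0.89 and 1.03) had the same sign. In control members 90.4% of the Hbb-bs UMIs and 92.9% of the Hba-a1 UMIs were in 5 cells. In the tumor-bearing library alone, 7 genes were called higher, and all were above 0.84 on the log2 scale in the control library: Pnrc1 (1.16 and 0.94), Phlda1 (1.26 and 0.98), Irf1 (1.48 and 0.97), Ifrd1 (1.28 and 0.89), Fos (1.03 and 0.97), Dusp1 (1.06 and 0.94) and Hbegf (1.24 and 0.85). Neat1, a long noncoding RNA kept in the nucleus, had 641 against 351 CPM in the tumor-bearing and 433 against 308 CPM in the control library, while Malat1, another, had log2 ratios of 0.05 and -0.02.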
